A study of Homo sapiens with 20 samples.

Results

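Messenger RNA levels on day 18 of neuronal differentiation were compared with those on day 0 across all protein-coding gene records, to describe which gene families were gained and lost over the whole course. The coding catalogue held 20237 of the 38369 records in the deposited matrix. After 3 records whose status marked too much data to fit were left out, 20234 coding records had a change, and the 11791 of them with a mean FPKM of at least 1 over the 7 days are called expressed here. The other 8443 stayed below that mean, although 270 of them reached 1 FPKM on day 18 and 181 did so on day 0. FPKM counts the sequenced fragments of a record, divided by its exon length and by the mapped fragments of the library, so it compares levels per length between genes.

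The cells were human neural progenitor cells derived from the embryonic stem cell line H1. On day 0 (3 cultures) they had grown on Matrigel in a proliferation medium with FGF. For the other days FGF was withdrawn and BDNF added in a medium based on Neurobasal with B27 lacking vitamin A, and the cells collected on day 5 (2 cultures), day 11 (3 cultures) and day 18 (3 cultures) had been replated on day 4 onto poly-D-lysine and laminin, whereas days 1, 2 and 4 (3 cultures each) had not. Time, medium, growth factor and coating therefore differ together between day 18 and day 0 and cannot be told apart. All cultures came from 1 line.

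Each record has 1 deposited value per day, already pooled across that day's cultures. None of the changes below therefore has a replicate check, an SD or a test, and the sequencing depth behind a value is unknown. A change is the difference of log2(FPKM + 0.1) between day 18 and day 0, less its median over the 14438 records of any class with a mean FPKM of at least 1. That median was -0.56, which means that as deposited the typical record was 1.47 times lower on day 18. A record is said to have risen or fallen when its change was at least 1 in size, which is 2-fold, and any change between 0 and 0.56 has the opposite sign in the values as deposited. As a yardstick of how far values moved between neighbouring days, the size of the change from day 1 to day 2 had a 95th percentile of 0.635 in records with a mean FPKM from 1 to 3, of 0.406 from 3 to 10 and of 0.311 at 30 or more. From day 4 to day 5, when the cells had been replated, these were 0.731, 0.513 and 0.363.

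A progenitor cell divides, spreads on its substrate and remodels the matrix around it. A neuron that forms from it leaves the cell cycle for good, builds an axon and dendrites on a microtubule frame, and makes the channels, receptors and vesicles that let it signal. Proneural and later transcription factors, neuronal splicing factors and loss of the repressor REST, which silences neuronal genes in other cells, are known parts of that change.

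Of the 11791 expressed coding records, 1643 rose (13.9%), 1511 fell (12.8%) and 8637 (73.3%) stayed within 1 of the median. At least 4-fold, a change of 2, 605 rose (5.13%) and 381 fell (3.23%), and at 16-fold, a change of 4, the counts were 123 and 42. Changes ran from -6.52 to 8.55, with the middle 90% between -1.70 and 2.03. The balance of the counts rests on the scaling of the days. As deposited, with no median taken off, 893 records were higher by 1 and 3527 were lower, and relative to the median over coding records with a mean FPKM of 10 or more, 1993 rose and 1188 fell. The filter also matters, since a record that passes it only through its high day had to differ, and among the 10842 records at 1 FPKM or more on both days, 1222 rose (11.3%) and 1228 fell (11.3%). Records that rose by 2 or more started low, at a median of 1.14 FPKM on day 0, and reached 7.35 on day 18, whereas those that fell by 2 or more went from a median of 16.5 to 1.57 FPKM. The first group held 0.492% of the summed coding FPKM on day 0 and 4.44% on day 18, and the second 4.81% and 0.772%.

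**Figure D1:**
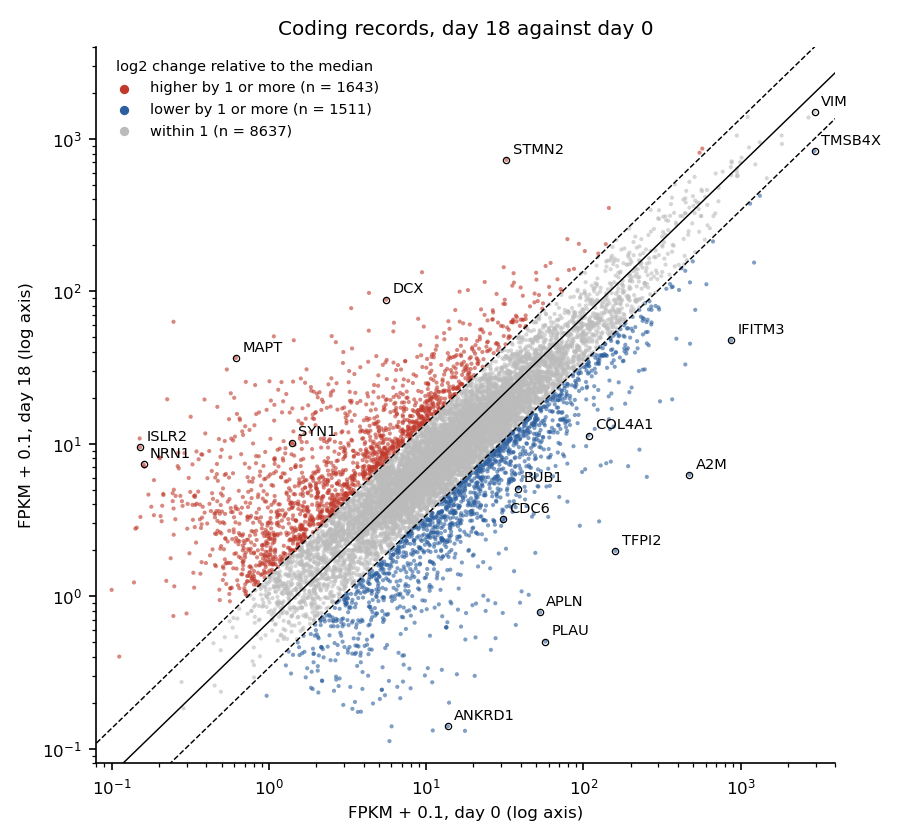
FPKM + 0.1 of each of the 11791 expressed coding records on day 0 (horizontal, log axis) and day 18 (vertical, log axis), 1 point per record. The solid line marks the median change and the dashed lines a change of 1 above and below it. The 1643 red records lie above the upper dashed line and the 1511 blue ones below the lower, with STMN2 and A2M far from the line at high FPKM.

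The largest single rise was that of C1orf61 (chr1:156374049-156400493 on hg19, minus strand). It was listed at 0.147, 0.140, 0.192, 0.384, 0.419, 11.2 and 63.0 FPKM in the order of the 7 days from day 0 to day 18, a change of 8.55. It stayed below 1 FPKM through day 5 and gained most of its level after day 5. VSTM2A followed, from 0.126 to 19.5 FPKM (6.997). MAPT, which encodes the axonal microtubule protein tau, went through 0.517, 1.34, 2.12, 3.30, 5.75, 14.4 and 36.4 FPKM over the 7 days, a change of 6.45. SYT13 of the synaptotagmin family, the axonal receptor gene ISLR2, the synaptic organizer gene CBLN2 and NRN1, which encodes the growth-promoting protein neuritin, had changes between 6.08 and 6.72. The gene of the retinoic acid degrading enzyme CYP26B1 went from 0.440 to 30.6 FPKM (6.39). A record without a name on chromosome 5 (chr5:173472724-173536181, plus strand), where the GENCODE annotation places NSG2, went from 0.975 to 50.5 FPKM (6.12). MAB21L2 (6.12), BCAN (6.01), DUSP15 (5.91), FXYD7 (5.87), CELF4 (5.78) and FSTL5 (5.77) complete the 15 largest rises. DUSP15 differed from the others in time: its 7 values were 0.1002, 3.39, 7.15, 10.7, 8.75, 9.37 and 8.05 FPKM, so that it reached its highest level on day 4.

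At the other end stood COL13A1 (chr10:71561644-71718903 on hg19, plus strand), which encodes a transmembrane collagen. It fell from 17.6 FPKM on day 0 to 1.07 on day 1 and 0.0308 on day 18, a change of -6.52. PLAU, the gene of the protease urokinase, gave 57.2, 15.9, 12.3, 3.62, 3.24, 0.438 and 0.404 FPKM over the 7 days (-6.27), and A2M, which encodes the broad protease inhibitor alpha-2-macroglobulin, gave 472, 238, 171, 69.5, 93.6, 13.2 and 6.15 FPKM (-5.68). PLAU was lower on each day than on the one before, and A2M on each but day 5. Its neighbour and paralogue PZP moved in parallel, from 20.2 to 0.200 FPKM (-5.53), and fragments from the similar parts of these 2 genes may be shared between them. The YAP target ANKRD1 (-6.06), the matrix proteoglycan biglycan (BGN, -5.83), the protease inhibitor TFPI2 (-5.78), the innate immune receptor TLR4 (-5.57), the peptide ligand apelin (APLN, -5.53), the semaphorin receptor PLXND1 (-5.30), the transcription factors ETS1 (-5.29) and FLI1 (-5.15), the BMP family member GDF10 (-5.14), OLFML3 (-5.12) and the transcriptional inhibitor ID3 (-4.90) were the other largest falls. APLN had dropped from 52.9 to 3.16 FPKM by day 1.

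Some genes went from near absence to clear expression or back. There were 44 expressed records below 0.5 FPKM on day 0 and at 5 FPKM or more on day 18, and 35 that went the other way. Beside the genes named above, the first class included the transcription factor genes UNCX (0.294 to 11.6 FPKM) and POU4F2 (0.458 to 5.90), and the second ICAM1 (10.8 to 0.172), which encodes a leukocyte adhesion molecule, and RUNX2 (7.02 to 0.175), a transcription factor gene of bone and crest cells. These 4 examples were chosen after their values were seen.

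Marker genes of cell types were followed to check the labelled identity of the cultures. All 11 neuron markers were expressed, 8 rose and none fell, with a summed level of 716 FPKM on day 0 and 1595 on day 18. Their share of the summed coding FPKM was 0.202% and 0.738% on these days. Doublecortin (DCX), a protein of migrating young neurons, gave 5.46, 11.4, 14.3, 23.5, 39.0, 90.0 and 88.0 FPKM on the 7 days (4.54), and STMN2, which encodes a growth cone protein, gave 32.3, 45.2, 68.1, 131, 238, 517 and 727 FPKM (5.05). STMN2 climbed on every day given, and DCX levelled off after day 11. Genes of the neurofilament subunits NEFL (153 to 68.1 FPKM) and NEFM (179 to 108) did not pass 2-fold, with changes of -0.61 and -0.18, and neither did GAP43 (0.41), which was lower on day 18 as deposited. These 3 genes were already at 150 FPKM or more in the progenitor cultures.

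Progenitor markers did not leave together. Of 7, HES5 and PAX6 rose, PROM1 fell, and SOX1, SOX2, NES and FABP7 stayed within 1. HES5, a Notch target that keeps progenitors from differentiating, gave 1.95, 14.2, 11.1, 13.8, 9.43, 29.5 and 20.0 FPKM (3.86). NES, which encodes the intermediate filament nestin, gave 514, 468, 515, 508, 474, 310 and 180 FPKM (-0.95), and SOX2, a transcription factor of neural stem cells, was at 126 FPKM on day 0 and still at 66.0 on day 18 (-0.38). In these bulk cultures fewer cells of a type and less RNA per cell cannot be told apart. The astrocyte genes GFAP, AQP4 and ALDH1L1 were below 0.4 FPKM on both days, GJB6 was listed at 0 on both days, and the oligodendrocyte genes OLIG1, OLIG2, SOX10 and MBP were below 0.4 FPKM on both days. The glutamate transporter gene SLC1A2, which was in the astrocyte list, rose from 0.983 to 17.9 FPKM (4.61). Over the whole lists, the 7 progenitor markers summed to 891 and 548 FPKM on days 0 and 18, but their share of the summed coding FPKM was 0.252% and 0.254%. The summed coding FPKM itself was 354143 on day 0 and 216151 on day 18. The 7 astrocyte markers summed to 88.5 and 37.4, most of the first from the gap junction gene GJA1, while SLC1A2 made up 17.9 of the second. The 7 oligodendrocyte lineage markers summed to 35.4 and 34.1, of which 27.3 and 16.4 came from a record that joins PDGFRA with FIP1L1. Astrocyte markers held 0.025% and 0.0173% of the summed coding FPKM, and oligodendrocyte lineage markers 0.01% and 0.0158%.

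Day 0 also held messages of other lineages. All sums here are FPKM as deposited, and the sum over all coding records was lower on day 18. Of the 12 mesenchymal or neural crest markers 7 were expressed, and their summed level was 317 FPKM on day 0 and 97.0 on day 18. Their share of the summed coding FPKM was 0.0895% and 0.0449%. COL3A1 went from 238 to 30.5 FPKM, whereas COL1A1 was listed at 0 on all 7 days, a value that cannot be read as absence beside COL1A2 at 33.6 FPKM on day 0. TFAP2A and TFAP2B, transcription factor genes of neural crest and of some neurons, went the other way, to 2.67 FPKM (4.85) and 56.0 FPKM (1.91). Of the 5 endothelial markers 4 had a record, and their summed level was 28.7 FPKM on day 0 and 0.837 on day 18. Most of it was KDR, the gene of the main VEGF receptor, at 23.8, 4.79, 6.49, 2.10, 3.84, 0.791 and 0.700 FPKM over the 7 days, while VWF was at 0.0723 FPKM on day 0. Muscle markers summed to 0.742 and 0.0564 FPKM and those of microglia and blood to 4.15 and 1.73 FPKM, of which 2.99 and 0.834 came from a record that joins CSF1R with PDGFRB. Pluripotency markers summed to 30.02 and 9.19 FPKM, all but a small part from DNMT3B and DPPA4, with NANOG and POU5F1 below 0.1 FPKM and TDGF1 and ZFP42 listed at 0 on both days. Epithelial markers summed to 14.2 and 20.1 FPKM, nearly all from a record that joins KRT19 with JUP, and motile cilium markers to 1.81 and 6.06 FPKM. The part that shifts in these other lineages play in the changes below was not tested.

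The cell cycle genes fell as a block. All 41 genes of the mitosis list were expressed and all 41 fell, against 12.8% of expressed coding records, with a median of -1.93 beside -0.04 over all of these. Their changes spanned only -2.73 to -1.25, and their share of the summed coding FPKM was 0.582% on day 0 and 0.169% on day 18. Largest were the falls of ANLN (-2.73), which encodes the contractile ring protein anillin, the mitotic kinesins KIF20A (-2.63) and KIF14 (-2.60), and the condensin subunit NCAPH (-2.63). The checkpoint kinase gene BUB1 gave 38.2, 19.5, 17.4, 16.2, 14.3, 14.2 and 4.98 FPKM over the 7 days, so its largest losses came by day 1 and after day 11. For the list as a whole the median was -0.77 on day 1, -1.23 on day 5, -0.91 on day 11 and -1.93 on day 18. No mitotic gene was back at its day 0 level on day 18, and none was off: ANLN was still at 3.14 FPKM.

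Promoters of the mitotic genes shared a sequence feature that the change did not use. Promoters of RefSeq (assembly GRCh38.p14), taken from 250 bases before to 50 bases after the start of a gene, were searched on both strands for 9 motifs. One promoter, the farthest upstream, was used per gene, and 8926 of 10975 named, unmerged, expressed coding records matched one. The cell cycle homology region (TTTGAA or TTCGAA), which is known from G2 and M phase genes as the site of the MuvB complex, was in 27 of 35 promoters of the mitosis list (77.1%), against 11.3% of all 8926. A CCAAT box was in 26 of the 35 (74.3%) against 37.0%, and both were in 57.1% against 5.02%. Windows of 30 bases are shown for the 5 mitotic genes with such a match that fell most outside chromosomes 8 and Y. Each lies around the first match, which is in capitals. It reads as TTCAAA where it lies on the other strand:
ANLN (chr7:36389824-36389853, plus strand): tcggcgctgaaaTTCAAAtttgaacggctg
KIF14 (chr1:200620733-200620762, minus strand): gcggggcgcccaTTCAAAttgcggccttct
BUB1 (chr2:110678045-110678074, minus strand): ctgcgcggggtaTTCGAAtcggcggcggct
CENPA (chr2:26786026-26786055, plus strand): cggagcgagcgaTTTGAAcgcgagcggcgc
KIF23 (chr15:69414282-69414311, plus strand): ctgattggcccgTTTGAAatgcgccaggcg
These 5 genes had changes from -2.27 (KIF23) to -2.73 (ANLN). A match is a description of the letters and does not show that a factor is bound there.

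DNA replication genes fell by a similar size but carried another motif. Of 40 genes, all expressed, 36 fell and 4 stayed within 1 below the median, with a median of -1.69. TK1, which encodes thymidine kinase, fell from 37.0 to 3.73 FPKM (-2.72), and the origin licensing factor CDC6 gave 30.7, 12.3, 9.25, 13.3, 7.77, 7.18 and 3.10 FPKM over the 7 days (-2.71). CDC45 (-2.53), part of the replicative helicase, and the ribonucleotide reductase subunit RRM2 (-2.66) fell as far. All 6 subunits of the MCM2 to MCM7 helicase fell, MCM3 most (-2.14) and MCM2 least (-1.55). The core sequence bound by E2F factors (TTTGGCG or TTTCCCG), known from genes of G1 and S phase, was in 17 of 32 replication promoters (53.1%), against 9.77% of all 8926 and 17.1% of the mitosis list, while the cell cycle homology region was in 2 of the 32. The 5 replication genes with such a match that fell most, again outside chromosomes 8 and Y, are shown the same way:
CDC6 (chr17:40287839-40287868, plus strand): tcgaggccgggcTTTGGCGggaggtgggaa
MCM3 (chr6:52284899-52284928, minus strand): ccggatggtacgTTTCCCGccaccgcgggg
POLE2 (chr14:49688403-49688432, minus strand): tctggccctcagTTTCCCGgcagcaaagga
MCM10 (chr10:13161551-13161580, plus strand): tccggttggaatTTTGGCGggttcagctgt
RFC3 (chr13:33818083-33818112, plus strand): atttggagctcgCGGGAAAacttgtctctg
In RFC3 the match lies on the other strand and reads as its reverse complement. Of 16 homologous recombination and repair genes 13 fell, with a median of -1.82, led by the nuclease EXO1 (-2.29) and the helicase BRIP1 (-2.29).

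Clustered histone genes, most of which are made in S phase, did not follow them in this polyadenylated RNA. Of 67 genes 63 had a record but only 17 were expressed, and 8 rose and 3 fell. HIST2H2BE rose from 2.37 to 17.4 FPKM (3.39) and HIST1H2BD from 3.41 to 15.3 (2.69), while HIST1H2BH (-2.79) and HIST2H2AC (-2.54) fell. Near-identical copies in this family may share fragments, so single values are uncertain.

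The second large loss was of the adhesive and contractile machinery of a spread cell. Of 21 expressed genes of the contractile actin cytoskeleton (23 in the list) 18 fell and none rose, with a median of -1.92, and their share of the summed coding FPKM went from 1.17% to 0.434%. Transgelin (TAGLN), an actin-binding protein of smooth muscle and fibroblasts, gave 367, 106, 226, 92.4, 147, 21.9 and 19.4 FPKM over the 7 days (-3.67), and the regulatory light chain gene MYL9 gave 140, 89.8, 104, 51.6, 58.5, 10.8 and 7.34 FPKM (-3.67). On the log2 scale both lost most between days 5 and 11, and TAGLN went down and up before that. The tropomyosin gene TPM2 (-3.35) and the nonmuscle myosin heavy chain gene MYH9 (-3.03) fell as well. Of 12 expressed integrins 8 fell (median -1.69), with the fibronectin receptor subunit ITGA5 from 19.6 to 0.772 FPKM (-3.94) and ITGB8 against the rest at 0.94. Annexins and S100 proteins, 2 families of calcium-binding proteins, had 10 of 12 expressed genes lower (median -1.88), with ANXA3 at -3.82 and ANXA1 from 149 to 7.53 FPKM (-3.73). Of 17 genes named as targets of YAP and TEAD, the factors that answer to cell spreading, 11 fell (median -1.33), with ANKRD1, the nucleotidase NT5E (-3.98) and TEAD4 itself (-3.29) among them.

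The matrix and its enzymes fell with it. Of 17 expressed genes in a list of 20 fibrillar and network collagens 13 fell and none rose, with a median of -2.26, the lowest of all lists. Of the 9 at 1 FPKM or more on both days 6 fell (median -2.40). COL2A1, the cartilage collagen, went through 102, 61.6, 52.7, 47.4, 41.4, 23.6 and 6.70 FPKM (-3.36), and COL18A1 (-3.45) and COL8A1 (-2.83) fell as far. COL6A1 was the 1 list member above the median, at 0.76. Outside the list, COL7A1 rose from 0.867 to 2.38 FPKM (1.92) and COL11A2 from 0.606 to 1.70 (1.90). Over all 25 expressed records with a COL symbol, 16 fell and 2 rose. Of 25 expressed matrix glycoproteins and laminins 19 fell and 1 rose (median -2.04): periostin (POSTN, -4.70), FBLN2 (-4.44) and the basement membrane protein NID1 (-4.38) were down, and the elastic fibre protein gene FBLN5 was up from 0.367 to 6.22 FPKM (4.32). Counting only the 18 glycoproteins and laminins at 1 FPKM or more on both days, 13 fell and none rose (median -1.52). Among 18 expressed matrix proteases and inhibitors 13 fell and 2 rose, and 8 fell and 2 rose of the 13 at that level on both days. The urokinase receptor gene PLAUR (-4.37) fell together with PLAU, and the lysyl oxidase LOXL2 fell to 1.82 FPKM (-4.13), while the membrane protease MMP15 (1.88) and the inhibitor TIMP2 (1.31) rose.

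An AP-1 element (TGANTCA), the site of FOS and JUN dimers, stood out among the promoters of the largest falls. It was in 34 of 281 promoters of records that fell by 2 or more (12.1%), against 3.82% of all and 4.92% of those that rose by 2 or more. At a fall of 1 or more the share was 5.75%, against 4.17% at a rise of 1 or more. With any promoter of a gene counted, these shares were 9.33% and 8.51%, beside 6.51% of all. At that setting records that rose and records that fell thus both lay above all genes, and the element hardly separated them. The 5 of these 34 with the largest falls are shown:
ANKRD1 (chr10:90921265-90921294, minus strand): cacatttcttccTGATTCAcatattcagca
TFPI2 (chr7:93890823-93890852, minus strand): agtccccgtgcaTGAATCAgccacccctca
EMP1 (chr12:13196539-13196568, plus strand): ggtctgtgtgtcTGAGTCAgagagagccta
POSTN (chr13:37598971-37599000, minus strand): ttaaacatgcagTGAGTCAattgttcatat
NPS (chr10:127549071-127549100, plus strand): cccatgccacaaTGATTCAgtctcgaagac
The other 29 included PLAUR, ITGA5, CALD1, ANXA2, IL11, MMP10 and RUNX2. FOSL1, which encodes an AP-1 subunit, fell from 17.6 to 0.419 FPKM (-4.54). In contrast, EGR1 (2.85) and FOS (1.81) rose among 10 expressed immediate early genes, of which 2 rose and 2 fell.

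**Figure D2:**
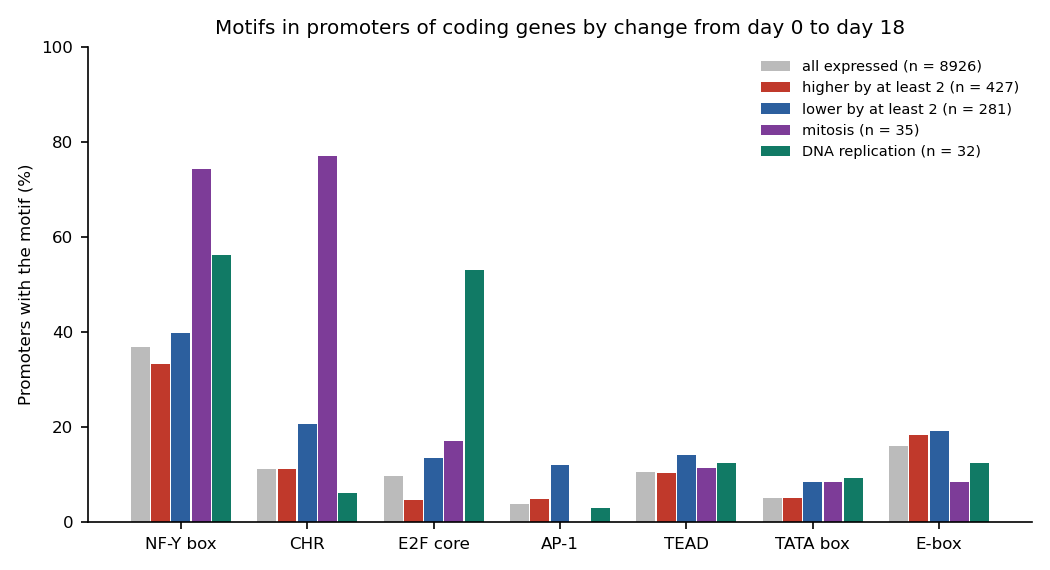
Share of RefSeq promoters that hold each of 7 motifs (vertical, percent, from 0), for all 8926 expressed genes, those that rose (427) or fell (281) by 2 or more, and the mitosis (35) and DNA replication (32) lists. The cell cycle homology region (CHR) stands at 77.1% in the mitosis list and the E2F core at 53.1% in the replication list. NF-Y box is the CCAAT box, and the E-box shown is CAGCTG.

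Some immune genes and growth factors also fell. Of 12 expressed cytokine and growth factor genes (27 in the list) 8 fell and 2 rose, though among the 6 at 1 FPKM or more on both days 2 fell and 2 rose, with PDGFB at -3.96 and IL11 at -3.07 and, against them, VEGFA. VEGFA gave 11.1, 38.2, 54.2, 38.3, 25.5, 6.00 and 38.7 FPKM over the 7 days (2.35), so its value on day 11 was below that on day 0. The interferon-induced membrane proteins IFITM1, IFITM2 and IFITM3, which block virus entry, had the largest falls in a list of antigen presentation and interferon genes in which 6 of 11 expressed fell. IFITM3 gave 871, 556, 528, 418, 396, 136 and 47.5 FPKM (-3.64), and IFITM1 went from 126 to 2.99 FPKM (-4.79). These 3 genes are similar in sequence and may share fragments. HLA-B, in a record joined with HLA-C, rose (1.66).

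Genes that answer to FGF, which had been withdrawn after day 0, moved less. Of 18 genes of FGF and ERK feedback, 8 fell and none rose (median -0.73), with the ETS factor ETV4 at 69.3, 15.5, 18.0, 6.46, 12.1, 4.44 and 10.0 FPKM over the 7 days. ETV4 and the list were both lowest on day 11, at a median of -1.46, and higher on day 18. Of 19 expressed genes of the IGF axis and oncofetal list 7 fell and 3 rose (median -0.82). Among the falls were LIN28A (-3.42) and LIN28B (-1.89), which block let-7 microRNA maturation, and the chromatin protein HMGA2, which gave 227, 102, 98.5, 76.0, 74.5, 27.6 and 9.04 FPKM (-4.08). IGFBP5, which encodes a binding protein of IGF, fell from 192 to 7.02 FPKM (-4.20), and the cell cycle inhibitor CDKN1C (2.33) and the imprinted gene NNAT (2.10) rose. ID3 and ID1, close relatives that block basic helix-loop-helix factors, moved apart, ID3 to 0.921 FPKM (-4.90) and ID1 from 1.58 to 11.4 FPKM (3.34).

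Gains were led by neuronal transcription factors. Of 43 in the list 26 were expressed, and 22 of these rose and 1 fell, against 13.9% and 12.8% of expressed coding records. Their median of 3.41 was the highest of all lists. Several passed the filter only through their late days and had to rise. Of the 17 at 1 FPKM or more on both days 13 rose and 1 fell (median 2.43), beside 11.3% of all such records in each direction. BHLHE22 (4.78), SCRT1 (4.76), MYT1L (4.66) and MYT1 (4.62) rose most. MYT1L, which represses non-neuronal programmes, gave 0.144, 0.190, 0.139, 0.678, 0.593, 1.73 and 4.10 FPKM over the 7 days, and MYT1 gave 0.392, 0.515, 0.721, 1.14, 2.53, 5.61 and 8.11. The list reached a median of 3.69 on day 11, above its final value. Among regional factors 6 of 13 expressed rose and 2 fell: LMX1B, a factor of midbrain, hindbrain and spinal neurons, gave 1.19, 1.59, 2.94, 3.98, 7.40, 17.2 and 21.1 FPKM (4.596), PAX7 rose (2.29), and EN1 (-2.88) and PAX5 (-1.97), which mark the midbrain and hindbrain boundary, fell. Of the 9 regional factors at 1 FPKM or more on both days 5 rose and none fell.

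Neuronal RNA-binding proteins rose too. Of 16 expressed genes 11 rose and none fell (median 1.89). Among the 12 at 1 FPKM or more on both days 7 rose (median 1.32). The ELAV family member ELAVL4 (4.88), the splicing factor genes CELF4 and CELF5 (5.45) and SRRM4, which drives inclusion of neuronal microexons, were highest, and SRRM4 gave 0.424, 0.703, 0.964, 1.73, 3.32, 8.99 and 10.3 FPKM (4.87). PTBP1, a repressor of neuronal exons in dividing cells, fell from 180 to 34.9 FPKM (-1.80) and was the largest fall among 41 expressed general splicing factors, of which 14 fell and none rose. In the chromatin list ACTL6B, the neuronal BAF complex subunit, rose from 0.908 to 25.6 FPKM (5.23), while the DNA methylation cofactor UHRF1 fell to 6.23 FPKM (-2.31).

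The release machinery of the synapse rose nearly throughout. Of 44 genes 37 were expressed, 31 rose and none fell, with a median of 2.36, and the other 6 lay above the median too. Of the 28 at 1 FPKM or more on both days 22 rose (median 1.98). Some synaptotagmins, though not all, are calcium sensors of vesicle release. In this family SYT4 gave 1.34, 2.00, 3.51, 6.57, 11.9, 31.1 and 47.6 FPKM over the 7 days (5.61) and SYT5 gave 0.550, 0.994, 0.966, 1.47, 2.57, 6.04 and 14.6 (5.05). SNAP91, which assembles clathrin coats on vesicles, went from 0.381 to 10.6 FPKM (5.04). Not all members of the gene family took part, as SYT6 fell from 4.21 to 1.00 FPKM (-1.41). Dense-core vesicle and neuropeptide genes had 9 of 16 expressed higher and 1 lower (median 1.71), with the release factor CADPS (3.96) and chromogranin B (CHGB, 3.51) among the rises and NPY, the neuropeptide Y gene, as the fall (-1.72).

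Channels and receptors rose from low levels. Of 16 expressed sodium and calcium channel genes 13 rose and none fell (median 1.88): the sodium channel SCN3A gave 1.80, 1.59, 2.25, 3.16, 5.74, 11.9 and 15.4 FPKM (3.59), and the calcium channel subunit CACNA2D2 (4.13) and the sodium channel subunit SCN3B (4.10) rose more in log2 but reached only 6.14 and 3.94 FPKM. Among the 10 sodium and calcium channel genes at 1 FPKM or more on both days 7 rose (median 1.43). Potassium channels were more mixed, with 6 of 13 expressed higher, KCND2 most (4.10), and KCNF1 lower (-1.56). Only 7 potassium channels were at 1 FPKM or more on both days, and 2 of these rose (median 0.46). Of 12 expressed glutamate receptor genes 9 rose (median 2.39), but only 5 were at 1 FPKM or more on both days, of which 2 rose. GRIA2, in a record joined with GRIA4, both subunits of AMPA receptors, gave 0.501, 0.534, 1.03, 1.73, 3.44, 10.3 and 19.9 FPKM (5.61), while GRIA1 was already at 71.7 FPKM on day 0 and was at 45.5 on day 18 (-0.09). Among 12 expressed GABA, glycine and acetylcholine receptor genes 7 rose, against 2 of the 7 at 1 FPKM or more on both days (median 0.07). The rises were led by GLRA2 in a record joined with GLRA3 (5.32) and the nicotinic subunit CHRNA4 (4.99). Many members of these lists, 10 sodium and calcium channels, 17 potassium channels, 11 glutamate receptors and 13 other receptors, stayed below a mean of 1 FPKM.

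The cytoskeleton and adhesion genes of the axon changed more unevenly. Of 35 expressed genes of the neuronal cytoskeleton and axonal transport 21 rose and none fell. Their median was 1.40, or 0.84 as deposited, and 19 of the 33 at 1 FPKM or more on both days rose (median 1.23). TUBB4A, a neuronal beta-tubulin, rose from 0.613 to 25.4 FPKM (5.71), and STMN4 from 3.24 to 77.3 (5.09). The alpha-tubulin record of TUBA1A could not be followed, as it was among the 3 records left out. Of 33 expressed adhesion and synapse organizer genes 24 rose and 1 fell (median 2.20). Among the 25 at 1 FPKM or more on both days 16 rose and 1 fell (median 1.64). The neurexin gene NRXN2 (4.67), whose product bridges the synaptic cleft, the L1 family member CHL1 (5.26) and CNTNAP5 (5.24) were among those that rose most, and CNTNAP2 was the 1 that fell, from 43.7 to 14.0 FPKM (-1.07).

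Axon guidance genes went both ways, 19 up and 6 down of 38 expressed. The receptors ROBO2 (3.46), EPHA5 (4.62) and PLXNA4 (3.51) and the transmembrane semaphorin SEMA6D (3.75) rose, whereas the secreted semaphorin SEMA3A gave 64.1, 47.5, 43.8, 50.1, 42.0, 12.2 and 6.01 FPKM (-2.83) and fell after day 5. Within the semaphorin family SEMA6B (2.27), SEMA6C (2.11) and SEMA5A (1.81) rose, and SEMA3C (-2.16) fell like SEMA3A. SEMA3F, of the same secreted class, stayed below a mean of 1 FPKM and went from 0.231 to 2.56. Progenitor and radial glia genes had 9 of 21 expressed higher and 1 lower, with the brain matrix genes NCAN (4.23) and BCAN as the largest. The radial glia gene FABP7 was at 195 FPKM on day 0 and 258 on day 18 (0.96).

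The element bound by REST (CAGCACC, any 2 bases, then GGACAG) was in only 4 of the 8926 promoters, and all 4 genes rose. They are shown because SYN1, which encodes the vesicle protein synapsin I, is a known REST target:
SYN1 (chrX:47620067-47620096, minus strand): gccagcttCAGCACCGCGGACAGtgccttc
TTC9B (chr19:40218345-40218374, minus strand): gcggcgcgCTGTCCCCGGTGCTGatgctca
UCN (chr2:27308596-27308625, minus strand): gacggggtCAGCACCATGGACAGcctcacg
OGDHL (chr10:49762418-49762447, minus strand): tgggccgcCAGCACCGTGGACAGcgccagg
In TTC9B the match lies on the other strand. SYN1 went from 1.30 to 10.1 FPKM (3.42), TTC9B from 0.167 to 6.78 (5.25), the neuropeptide gene UCN from 0.267 to 1.30 (2.50) and OGDHL from 0.925 to 1.99 (1.59). TTC9B, UCN and OGDHL were below 1 FPKM on day 0 and passed the filter through later days, so the filter favoured a rise. With 4 genes this is a description of those genes. In records that rose and fell by 1 or more, TEAD elements (CATTCC) were in 10.8% and 11.5%, and TATA boxes (TATAAA) in 5.79% and 6.45%. The E-boxes CAGATG and CAGCTG were in 10.3% against 9.15% and 16.9% against 16.4%, and the CCAAT box in 33.5% against 39.3%. At a change of 2 or more the shares lay further apart for TEAD elements (10.3% and 14.2%) and TATA boxes (5.15% and 8.54%). There the E-boxes were in 10.1% against 12.1% and 18.3% against 19.2%. None of the 11 strings searched is contained in another. Median GC content of the promoters was 66.7% for records that rose, 65.3% for those that fell and 65.7% for all.

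**Figure D3:**
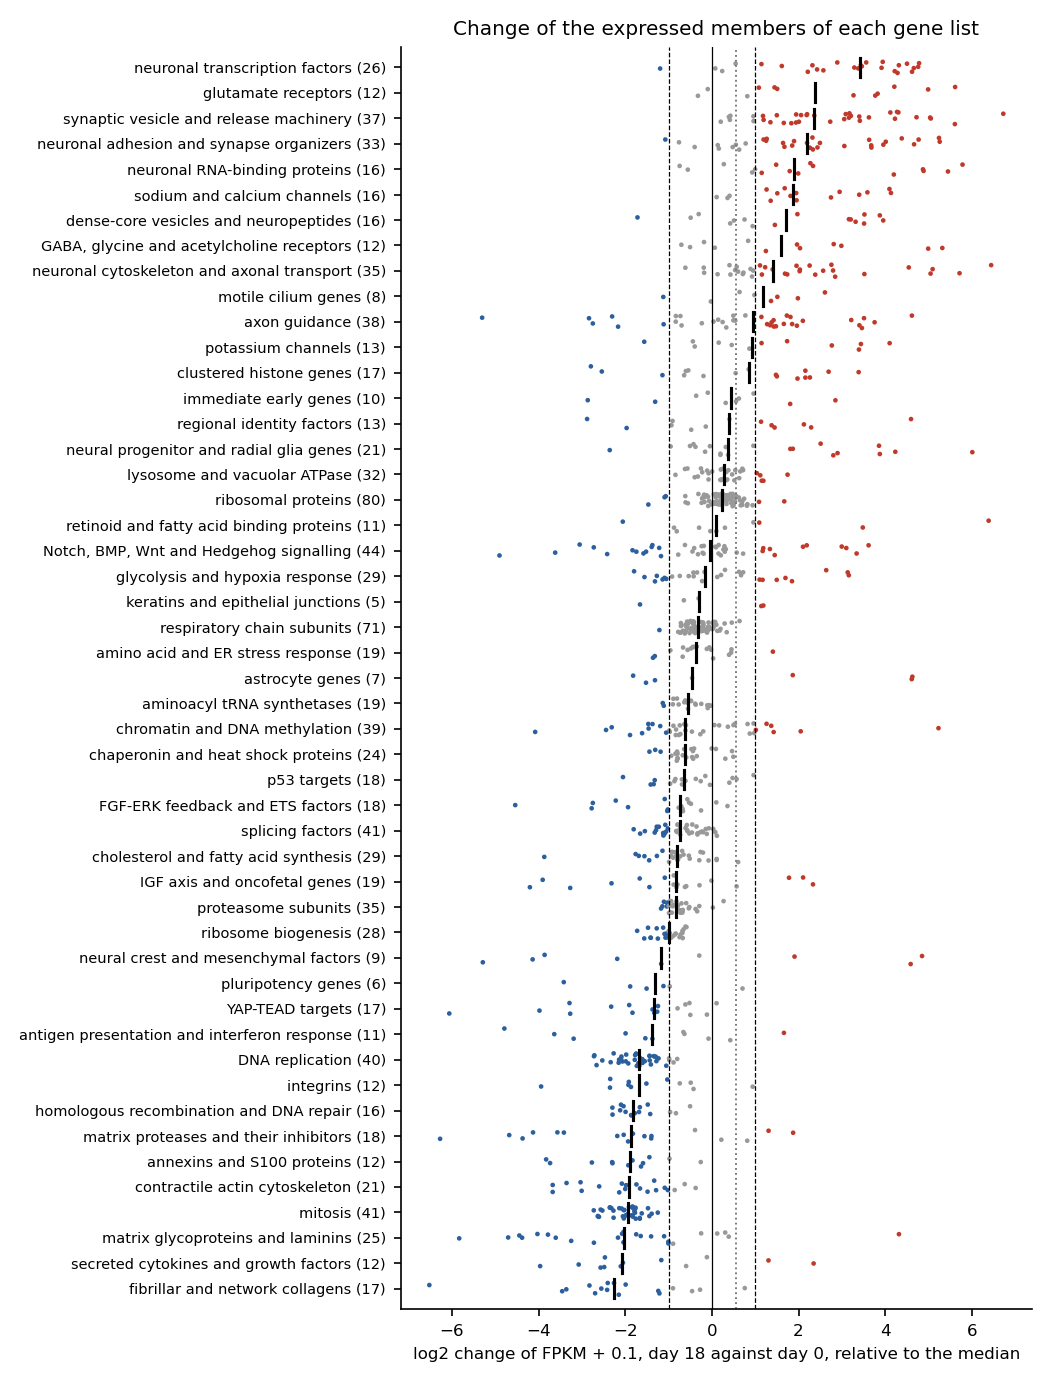
Change from day 0 to day 18 (horizontal, log2, relative to the median) of each expressed member of the gene lists with 5 or more such members, 1 point per record and the number in brackets, ordered by the list median (black bar). Dashed lines mark changes of 1 and -1 and the dotted line 0.56, below which a rise is a fall as deposited. Lists run from collagens at -2.26 to neuronal transcription factors at 3.41.

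Genes that every cell uses moved less, and the sign of some of their medians turns with the scaling. Ribosomal proteins, 80 of 82 expressed, had a median of 0.23, with 2 higher and 3 lower, and -0.33 as deposited. They made up 7.77% of the summed coding FPKM on day 0 and 9.79% on day 18. RPL22L1 fell (-1.47) while its paralogue RPL22 was at 0.94, and RPS27 rose (1.67). Respiratory chain subunits had a median of -0.33 with 1 of 71 lower and none higher, and lysosome and vacuolar ATPase genes of 0.29 with 5 of 32 higher, which is below 0 as deposited. Lists of genes for growth and protein turnover lay lower. Ribosome biogenesis genes were all below the median and 13 of 28 fell (median -0.98), proteasome subunits had 5 of 35 lower (median -0.82), cholesterol and fatty acid synthesis 7 of 29 (median -0.81), and chaperones 3 of 24 (median -0.62). For the proteasome and the chaperones these counts are close to the 12.8% of all expressed coding records that fell. FDPS of the sterol pathway fell from 256 to 54.0 FPKM (-1.69). Glycolysis and hypoxia genes split, 8 up and 7 down of 29, with the neuronal enolase ENO2 at 3.16 and ENO1, its widely expressed paralogue, at -1.05. The elongation factor gene EEF1A2 of neurons and muscle, which also has a record joined with EEF1A1, rose from 6.08 to 54.4 FPKM (3.70).

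Smaller lists gave mixed results. Retinoid and fatty acid binding proteins had 3 of 11 expressed higher, CYP26B1 and DHRS3 (3.48) foremost, and FABP3 lower (-2.06). Of the 8 at 1 FPKM or more on both days 1 rose and 1 fell. In Notch, BMP, Wnt and Hedgehog signalling 10 rose and 13 fell of 44, with WNT7B up (3.62) and the activin inhibitor follistatin (FST) down from 59.6 to 3.21 FPKM (-3.62). Of the 33 signalling genes at 1 FPKM or more on both days 7 rose and 5 fell (median 0.15). Of 8 expressed motile cilium genes 4 rose and 1 fell, with FOXJ1, the master factor of motile cilia, at 1.31, 1.45, 1.15, 1.69, 1.85, 3.21 and 3.69 FPKM over the 7 days (1.99). Of the 5 cilium genes at 1 FPKM or more on both days 2 rose and none fell (median 0.98). Neural crest and mesenchymal factors had 3 of 9 higher and 5 lower, with NGFR, a neurotrophin receptor, at 0.709, 3.79, 8.22, 15.2, 15.8, 15.96 and 13.1 FPKM over the 7 days (4.59) and SNAI2 from 13.3 to 0.525 (-3.86). Only 2 of these crest and mesenchymal factors were at 1 FPKM or more on both days, of which 1 rose and 1 fell (median -0.14). The counts of the remaining lists are small and stand beside 13.9% of all expressed coding records that rose and 12.8% that fell. Of 18 p53 targets 4 fell, of 19 expressed genes of the amino acid and ER stress response 1 rose and 2 fell, of 19 aminoacyl tRNA synthetases 2 fell, of 5 expressed keratin and junction genes 2 rose and 1 fell, of 6 expressed pluripotency genes 4 fell, of 7 expressed astrocyte genes 3 rose and 3 fell, and of 3 expressed oligodendrocyte genes 1 rose. In all, the 50 lists held 154 of the 605 records that rose by 2 or more and 126 of the 381 that fell by as much.

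Families formed from the symbols alone gave a view that no list shaped. Records were grouped by the letters before the first digit, and 182 groups had 8 or more expressed members. The lowest medians were those of ANXA (-2.29, 7 of 9 lower), COL (-1.99, 16 of 25) and MCM (-1.65, 9 of 12), followed by ARHGAP (-0.95, 7 of 15), IL (-0.95, 6 of 13), PSMD (-0.81, 1 of 13), NT (-0.78, 3 of 9), FZD (-0.78, 5 of 10), NUP (-0.76, 5 of 17) and EXOSC (-0.75, 2 of 10). ARHGAP11A (-2.51) led the ARHGAP group and FZD6 (-2.38) the frizzled Wnt receptors, in which FZD7 (0.72) and FZD10 (0.83) went against the rest. Of the 9 ANXA records 2 carry the symbol ANXA2 and may share fragments, and the letters NT and IL join unrelated genes. The highest were SYT (1.94, 8 of 11 higher), POU (1.39, 5 of 9), SEMA (1.012, 8 of 15), HIST (0.85, 9 of 19), EEF (0.78, 3 of 10), PCDH (0.75, 3 of 9), ZSCAN (0.60, 3 of 11), PEX (0.57, 1 of 12), MMP (0.56, 3 of 8) and ZFP (0.55, 3 of 14). POU2F2 (4.50) and the sensory and retinal neuron factors POU4F1 (3.92) and POU4F2 (3.98) led the POU group, and PCDH10 (3.07) the nonclustered protocadherins. SYT13 and POU4F2 were below 0.5 FPKM on day 0 and passed the filter through later days. The family counts were not repeated over records at 1 FPKM or more on both days. The MMP median hides a split, MMP24 at 3.62 against MMP2 at -3.41 and MMP10 at -3.56. Largest by number was the zinc finger group ZNF, with 409 members, a median of 0.43 that is -0.13 as deposited, 71 higher and 2 lower.

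Shares of the summed coding FPKM show where the bulk of the message went. TMSB4X, which encodes the actin-sequestering thymosin beta 4, lost most, from 0.833% to 0.385%, and the actin regulator PFN1 went from 0.344% to 0.0713%, IFITM3 from 0.246% to 0.022%, MYL6 from 0.374% to 0.196% and A2M from 0.133% to 0.00285%. TMSL3, ENO1, VIM, TMSB10 and H2AFZ complete the 10 largest losses. The largest gains were those of a record that joins EEF1A1 with EEF1A2, from 0.313% to 0.642%, of STMN2, from 0.00912% to 0.337%, of TUBB2B joined with TUBB6, from 0.161% to 0.399%, of EEF2, from 0.155% to 0.375%, and of a record named EEF1G, from 0.267% to 0.486%. That record lies on chromosome 7 (chr7:132719328-132720669), is 1 of several with the symbol and may share fragments with them. TUBB3 in a joined record, C5orf13, RPL3 and an unnamed record on chromosome 17 were among the next. The 3 elongation factor records were highest on days between: EEF2 gave 547, 972, 1283, 1146, 822, 891 and 811 FPKM over the 7 days.

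The change was spread over the course. Records that rose by 2 or more had reached a median of 22.5% of their log2 change on day 1, 38.2% on day 4, 51.1% on day 5 and 79.1% on day 11. Records that fell by 2 or more had reached 30.1%, 48.0%, 50.7% and 79.7% on the same days. On day 5, 316 of the 605 (52.2%) and 197 of the 381 (51.7%) were past the halfway mark, and on day 11, 71 and 81 lay beyond their day 18 value. Lists differed in their course. Collagens had a median of -0.08 on day 1, -0.42 on day 5, -1.50 on day 11 and -2.26 on day 18, while the mitosis list was already at -0.77 on day 1 and lay at -1.23 on day 5 and -0.91 on day 11. Synaptic vesicle genes stood at 0.39, 1.19, 1.94 and 2.36 on those 4 days. The end points hide a few excursions, since 22 records passed 2 on a day between and ended within 1, and 13 did so downward. In the amino acid and ER stress list, whose median was 1.33 on day 1 and -0.37 on day 18, MTHFD2 gave 59.5, 124, 125, 97.0, 58.1, 12.6 and 20.8 FPKM (-0.96).

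**Figure D4:**
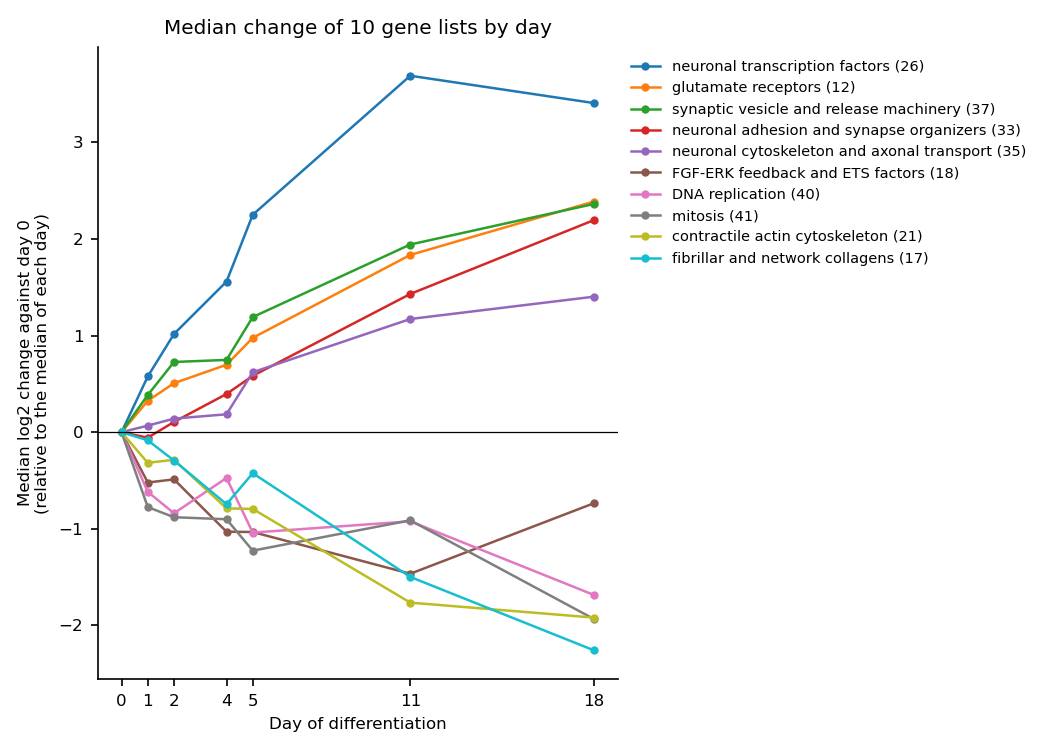
Median log2 change against day 0 of the expressed members of 10 gene lists (vertical, relative to the median of each day) by day of differentiation (horizontal, days), with the number of members in brackets. Neuronal transcription factors peak at 3.69 on day 11, the mitosis list is at -0.77 by day 1, and the FGF and ERK list returns from -1.46 on day 11 to -0.73 on day 18. Points have no error bars because the files hold 1 value per day.

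Genes that rose had longer spans. Records that rose had a median span in the genome of 43.6 kb, against 31.4 kb for those that fell and 31.3 kb for the others. Among the 1179 records with the longest span, 175 kb or more, 26.9% rose and 11.8% fell with a median change of 0.29, whereas in 9 groups of about that size with shorter spans between 10.2% and 15.6% rose. Exon lengths differed less, with medians of 4.26 kb, 3.36 kb and 3.67 kb.

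Some neighbours passed 1 in the same direction. In 17 places 4 or more expressed coding records in a row did so, 10 up and 7 down (hg19). As 13.9% of all expressed coding records rose and 12.8% fell, some runs would arise without any link between neighbours. Whether there were more than that was not tested. The upward run at chr1:149804221-149858232 lists the histone symbols HIST2H2AA3 and HIST2H4A more than once. On chromosome 11 (chr11:236808-320914) 5 records from PSMD13 to IFITM3 fell by 1.17 to 4.79 on the log2 scale. On chromosome 1 (chr1:151955387-153606568) S100A10, S100A11, S100A16 and S100A13 fell by 1.59 to 2.30, and on chromosome 19 (chr19:45349393-45422606) PVRL2, TOMM40, APOE and APOC1 fell by 1.36 to 2.52. Upward, PCDHB9, PCDHB10, PCDHB14 and PCDHB15 of the protocadherin beta cluster (chr5:140566893-140627799) rose by 1.211 to 1.6, and LRRN2, NFASC, CNTN2 and TMEM81 (chr1:204586303-205053588) by 1.29 to 3.68. Several of these neighbours are paralogues, between which fragments may be shared.

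Several of the values above rest on records that other genes touch. The counting is not stated to use strand, so that where exons of a gene lie opposite exons of another, their fragments cannot be told apart. In the GENCODE annotation on hg19 such exons cover 65.9% of the exon bases of PAX6, 53.9% of MAB21L2, 45.3% of VIM, 35.7% of FDPS, 28.8% of PLAU, 26.4% of NEFM, 22.9% of COL18A1, 22.7% of C5orf13, 22.4% of MMP24, 19.6% of TUBB4A, 18.9% of NEFL, 18.5% of TFAP2A, 16.9% of BCAN, 16.6% of ARHGAP11A and 16.2% of TAGLN, and between 10% and 15% of FSTL5, NGFR, CACNA2D2, POU4F1, SCN3A, MBP and the joined record of TUBB3. Of the 11791 expressed coding records, 543 join several gene symbols, 273 have no name and 271 had a failed fit for at least 1 step between days, ENO1 and EPHA5 among them.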

How the data were processed

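Libraries of polyadenylated RNA from 20 cultures on 7 days were made with the Illumina TruSeq kit and sequenced in pairs on a HiSeq 2000. Per the methods, TopHat2 (alignment, hg19), Cufflinks (assembly) and Cuffdiff2 (levels) were run by the authors at default settings, with versions not given in the sources used here. The deposited matrix holds 1 FPKM value per record and day, pooled over the cultures of that day by the authors. FPKM is scaled to the mapped fragments of a library, so a shift in abundant messages can move all other values, and depth cannot be recovered. The summed coding FPKM was 354143 on day 0 and 216151 on day 18. The 10 highest coding records of each day made up 5.31% and 5.0% of it. The reason for the lower sum on day 18 was not tested. A second deposited table, with exon positions and the authors' fold changes, test statistics, p-values and q-values for neighbouring days, was used only for positions, names and status words.

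Changes were computed on log2(FPKM + 0.1) in Python (3 coding records with status HIDATA left out), relative to the median change, and described for coding records whose mean FPKM reached 1. No test was possible, since each day has 1 value. The members and the 50 gene lists were chosen with earlier results of these data known. Symbols of the lists were matched to deposited names or older spellings at the gene's GENCODE position on hg19. Where a symbol had several records, that of highest mean on the primary chromosomes was taken. Genes were named by rule: the 15 largest rises and falls, in each list and each of 20 symbol families up to 4 members with the largest change in the direction of its median and up to 2 against it, the 10 records whose share of the summed coding FPKM grew or shrank most, and the cell type markers. The genes of the motif windows, other genes named for the AP-1 element, MCM2, SEMA3F, UNCX, ICAM1 and the runs of neighbours stand beside that rule and were chosen after their values were seen. Shares are of the summed FPKM of the 20234 coding records. Promoters are those of RefSeq (GRCh38.p14), matched by symbol, chromosome and strand. List counts over members at 1 FPKM or more on both days were added after seeing the data. The script was tested on simulated data. A few genes that the rule names are not reported here. A planned comparison of the proteins of paralogues was not run.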

Additional observations from a re-analysis of the deposited data

How the results depend on the processing

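No paired analysis was possible because the deposited values are pooled over the cultures of a day, and leaving out single cultures was not possible for the same reason. Both counts of records that rose and fell stayed within 1.5 times under pseudocounts of 1 and 0.01, scaling to the same summed FPKM or 75th percentile, a median over coding records or those averaging 10 FPKM or more, and with joined or failed records left out or the 3 HIDATA records kept. As deposited they were 893 and 3527. The count of rises was 3101 with no filter on the mean and 830 at a mean of 5 or more, and at a threshold of 2 the counts were 605 and 381. The share of rises among all calls was 52.1%, and 20.2% as deposited, 42.9% at a mean of at least 5, and from 61.1% to 63.1% with the same summed FPKM, with a median over coding records of a mean of at least 10 and with no filter. Between 19 and 24 of the 24 lists with a median past 1 kept that call, and those that lost it under some setting were antigen presentation, neural crest, pluripotency, motile cilium and neuronal cytoskeleton genes. At a mean of 5 or more, 4 others had too few members. As deposited, 11 further lists passed 1 downward, and with no filter the pluripotency median was 0.0839. Of the 10 lowest and 10 highest symbol families, 5 stayed among them when families of 5 members were allowed, and 13 when ranked by the share past 1. The share of falls with the cell cycle homology region was 17.5% at a fall of 1 and 20.6% at a fall of 2, against 11.3% of all and 9.53% of rises of 1. Over any promoter of a gene it was 23.2% at a fall of 1, against 15.8% of all and 15.7% of rises. These any-promoter settings, and those without failed records, were added after seeing the data. For the E2F core the share of falls was 16.04% over any promoter, against 12.14% of all and 9.11% of rises. For the AP-1 element it was 12.1% at a fall of 2. Over any promoter it was 9.33% at a fall of 1, against 6.51% of all and 8.51% of rises. The signalling median, at -0.05, turned sign with several settings. Precision is limited by the lack of replicate values.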
